A study of Mus musculus with 11 samples.

Results

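Mitochondrial carriers of the Slc25 family were followed across 3 genotypes of mouse lumbar spinal cord. The members are the rows of the deposited expression table whose symbol begins with Slc25a and a number, 47 of 20888 genes. By its title, the study models Charcot-Marie-Tooth disease of the axonal type in mice, which in patients follows from mutations of mitofusin 2. All mice were C57BL/6 and 10 months old. The groups were nontransgenic controls (nTg, 3 libraries), mice with the mutant mitofusin MFN2-R94Q (3 libraries), and mice with MFN2-R94Q together with mitofusin 1 (MFN2-R94Q:MFN1, 5 libraries). The sources used here do not give the promoter that drives the transgenes or the species of their sequence.

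Most carriers of this family are small proteins of the inner mitochondrial membrane that exchange metabolites between the matrix and the cytosol. Among these metabolites are ATP, ADP, phosphate, citrate, amino acids, nucleotides and cofactors. These inner membrane carriers are encoded in the nucleus and reach the inner membrane through the TIM22 insertion route. In neurons they supply ATP to the cytosol and carry reducing equivalents into the matrix through the malate-aspartate shuttle, and citrate export supplies the acetyl groups used for lipid synthesis. Mitofusins, in contrast, join the outer membranes of neighbouring mitochondria.

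Values are RPKM, which corrects read numbers for the length of the gene and the depth of the library, so levels can be set side by side between genes. Depth ranged from 30.7 to 72.0 M reads per library. On the main axis of variation over all genes, MFN2-R94Q replicate 2 lay apart at 27.01, with the other MFN2-R94Q libraries at 6.20 and 8.05 and the remaining libraries between -8.23 and -2.48. MFN2-R94Q:MFN1 replicate 3 held 1.15 RPKM of Prx, a Schwann cell myelin gene of nerve roots, against at most 0.166 elsewhere. The rows for Mfn1 and Mfn2 did not show the transgenes. Mfn1 was between 24.2 and 25.6 RPKM in MFN2-R94Q:MFN1, between 24.2 and 25.5 in nTg and between 25.8 and 26.6 in MFN2-R94Q. Its highest values thus lay in a group without added MFN1, and Mfn2 was between 43.3 and 47.7 in all libraries. These rows therefore did not check the genotype labels.

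The family covered a wide range of levels. In lumbar spinal cord, 3 members averaged above 100 RPKM over all libraries, 9 lay between 20 and 100, 10 between 10 and 20, 17 between 1 and 10, and 8 at 1 or less. A test required at least 0.5 RPKM in at least 3 libraries, which 40 members passed. The 7 members below this filter were Slc25a2, Slc25a21, Slc25a31, Slc25a41, Slc25a43, Slc25a48 and Slc25a54, none of which averaged above 0.353 RPKM. Just above it, Slc25a24 averaged 0.647 RPKM. Summed over the family, the level was 1489 ± 8.27 RPKM (SD, n = 3) in nTg, 1436 ± 27.7 (n = 3) in MFN2-R94Q and 1451 ± 50.5 (n = 5) in MFN2-R94Q:MFN1. The sums ran from 1481 to 1498, from 1406 to 1461 and from 1379 to 1512, so nTg and MFN2-R94Q did not overlap and MFN2-R94Q:MFN1 covered both.

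**Figure D1:**
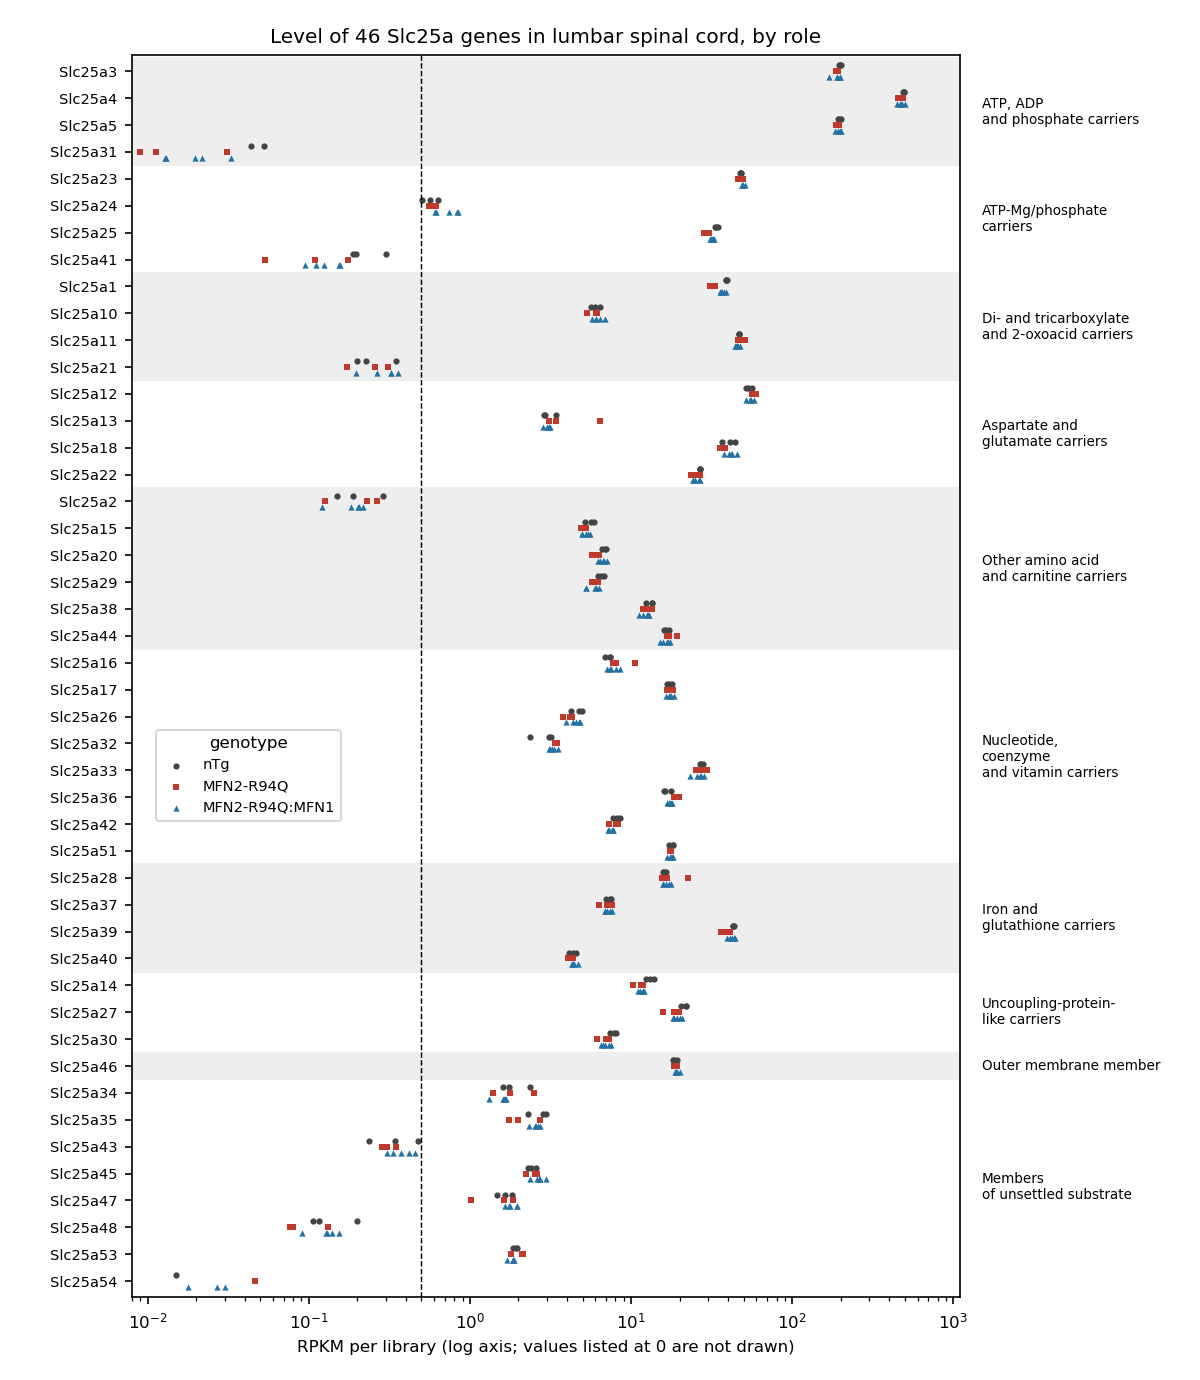
RPKM of 46 of the 47 Slc25a genes on a log axis, 1 point per library, coloured by genotype and ordered by role; the dashed line marks 0.5 RPKM and values listed at 0 are not drawn. Slc25a4, Slc25a5 and Slc25a3 lie above 100 RPKM in every library, and 7 members stay below the dashed line.

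The ATP, ADP and phosphate carriers held the 3 highest levels. Together Slc25a4, Slc25a5 and Slc25a3 made up 59.4% ± 0.327 (SD, n = 3) of the family's summed RPKM in nTg, 59.2% ± 0.243 (n = 3) in MFN2-R94Q and 59.0% ± 0.669 (n = 5) in MFN2-R94Q:MFN1. Slc25a4 (ENSMUSG00000031633, chromosome 8, 46206797 to 46211284, GRCm38), the ADP/ATP carrier of heart, muscle and nerve, was at 491, 495 and 488 RPKM in nTg. It was at 453, 485 and 471 RPKM in MFN2-R94Q and at 476, 498, 469, 444 and 482 in MFN2-R94Q:MFN1. All 3 MFN2-R94Q values lay below all nTg values, while MFN2-R94Q:MFN1 overlapped both groups. The log2 difference of MFN2-R94Q from nTg was -0.07 ± 0.0414 (SE), and the adjusted p was 0.28 in limma, which did not pass the threshold of 0.05.

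Slc25a5, the second ADP/ATP carrier, was at 201, 195 and 193 RPKM in nTg and at 196, 186 and 193 in MFN2-R94Q. The MFN2-R94Q:MFN1 libraries held 193, 201, 193, 184 and 199 RPKM. The groups overlapped (log2 difference of MFN2-R94Q from nTg -0.03 ± 0.0368 SE, limma adjusted p = 0.564). Slc25a3, the phosphate carrier that feeds ATP synthase, was at 194, 201 and 197 RPKM in nTg and at 187, 192 and 187 in MFN2-R94Q. It was at 191, 199, 189, 169 and 197 RPKM in MFN2-R94Q:MFN1, where replicate 4 was the lowest library of all. MFN2-R94Q lay below nTg in each library, with a log2 difference of -0.06 ± 0.0511 (SE) and a limma adjusted p of 0.402. Slc25a31, the ADP/ATP carrier of testis, stayed at 0.0526 RPKM or less. Slc25a4 made up 71.5% ± 0.433 (SD, n = 3) of the ADP/ATP carrier RPKM in nTg, 71.0% ± 1.22 (n = 3) in MFN2-R94Q and 70.9% ± 0.259 (n = 5) in MFN2-R94Q:MFN1. These 3 genes are known to have processed pseudogenes, and the sources used here do not give how reads matching several genes were assigned.

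The first comparison asked which carriers differ in level when the mutant mitofusin is present. In MFN2-R94Q against nTg, 6 of the 40 tested members passed the threshold, 15.0% of them, against 17.9% of all 14347 tested genes. The 5 that fell were Slc25a1, Slc25a25, Slc25a14, Slc25a39 and Slc25a27. These 5 of 40 stand beside 10.4% of all tested genes called lower. Only Slc25a36 rose, 1 of 40 beside 7.5% of all tested genes called higher. Values of the 2 groups did not overlap for 15 members, 11 lower and 4 higher, while 35.7% of all tested genes did not overlap. The share of members called was near the background, and the median log2 difference was -0.044 over the members and -0.002 over all tested genes. Single libraries moved the members' median, to -0.01 without MFN2-R94Q replicate 1, -0.078 without MFN2-R94Q replicate 2, -0.073 without nTg replicate 1 and -0.029 without nTg replicate 3. Of the 40, 26 differences were below 0 (65.0%), as were 50.7% of those of all tested genes. In tissue that holds many cell types, fewer cells of a type and less RNA per cell cannot be told apart.

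Promoters of called members are shown because the data describe a set of genes that passed the threshold in the same comparison. Those of Slc25a14 are not shown, and for Slc25a25 only 1 window is. Windows run from 250 bases before to 50 after a transcript start and come from RefSeq on GRCm38.p6. The table held 46 windows for 36 members and none for the other 11, Slc25a27 and Slc25a46 among them. Each of the 5 called members with a window had a GC box, GGGCGG on either strand, in at least 1 of its windows. Counted in the same way by gene, 83.3% of the 36 members and 38.2% of all genes had a GC box. Capitals mark a GC box or a cyclic AMP response element, TGACGTCA, which reads the same on both strands. The Slc25a25 windows not shown, at chr2:32431102-32431401 and chr2:32451421-32451720, hold no cyclic AMP response element. The windows shown, 5′ to 3′ on the gene's minus strand, are those of Slc25a1 at chr16:17928170-17928469, of the Slc25a25 start that holds the cyclic AMP response element at chr2:32424017-32424316, of Slc25a36 at chr9:97110992-97111291 and of Slc25a39 at chr11:102407468-102407767.
Slc25a1: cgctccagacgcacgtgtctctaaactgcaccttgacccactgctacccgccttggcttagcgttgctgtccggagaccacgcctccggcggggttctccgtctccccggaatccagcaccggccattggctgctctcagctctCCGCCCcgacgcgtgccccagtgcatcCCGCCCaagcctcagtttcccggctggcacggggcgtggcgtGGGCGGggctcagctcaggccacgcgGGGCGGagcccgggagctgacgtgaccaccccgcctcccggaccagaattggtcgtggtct
Slc25a25: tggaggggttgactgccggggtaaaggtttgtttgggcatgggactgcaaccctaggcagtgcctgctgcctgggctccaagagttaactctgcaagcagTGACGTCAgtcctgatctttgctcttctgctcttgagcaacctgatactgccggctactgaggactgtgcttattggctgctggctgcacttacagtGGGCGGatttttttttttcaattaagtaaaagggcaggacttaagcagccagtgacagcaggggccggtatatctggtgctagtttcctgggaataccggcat
Slc25a36: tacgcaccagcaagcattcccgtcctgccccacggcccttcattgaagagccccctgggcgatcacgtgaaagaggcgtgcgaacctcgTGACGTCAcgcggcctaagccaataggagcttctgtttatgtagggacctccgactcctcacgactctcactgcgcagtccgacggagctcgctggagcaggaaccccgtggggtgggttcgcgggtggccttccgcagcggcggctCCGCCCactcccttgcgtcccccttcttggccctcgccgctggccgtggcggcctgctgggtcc
Slc25a39: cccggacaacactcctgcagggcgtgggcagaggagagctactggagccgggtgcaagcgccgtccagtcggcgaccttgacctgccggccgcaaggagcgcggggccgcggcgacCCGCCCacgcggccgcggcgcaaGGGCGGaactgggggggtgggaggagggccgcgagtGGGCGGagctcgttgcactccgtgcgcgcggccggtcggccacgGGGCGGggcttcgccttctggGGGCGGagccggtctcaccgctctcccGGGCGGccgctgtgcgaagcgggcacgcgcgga

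A GC box stood in 82.6% of the 46 member windows and in 35.7% of all 32851 windows of the same length. The cyclic AMP response element stood in 4.35% of member windows, 1 window each of Slc25a25 and Slc25a36, and in 1.79% of all windows. Of these 2 genes, Slc25a25 fell and Slc25a36 rose in MFN2-R94Q against nTg. The E-box CACGTG stood in 17.4% of member windows and 7.15% of all, and CCAAT in 47.8% and 37.4%. TGCGCANGC, a form of the site of nuclear respiratory factor 1, stood in 4.35% and 4.16%, and AAGGTCA, a form of the site of estrogen-related receptors, in 2.17% and 4.72%. All motifs were searched on both strands, and each was counted whether or not it overlapped another. Member windows held a median of 15 CpG sites and 59.3% G and C, against 7 CpG sites and 52.7% in all windows. A match of letters is a description and not a binding site.

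Slc25a1 (ENSMUSG00000003528, chromosome 16, 17925223 to 17928219), the carrier that exports citrate from the matrix for acetyl-CoA and lipid synthesis in the cytosol, had the smallest adjusted p of the family. It was at 39.0, 39.4 and 38.7 RPKM in nTg and at 31.8, 30.9 and 33.2 in MFN2-R94Q. With MFN1 added it was at 35.9, 39.0, 36.4, 36.7 and 37.8 RPKM. Every MFN2-R94Q library lay below every library of the other groups, and MFN2-R94Q:MFN1 overlapped nTg through replicate 2. Slc25a1 fell by 0.28 ± 0.0386 on the log2 scale in MFN2-R94Q against nTg (limma adjusted p = 0.00232). It kept its call in all 20 alternative settings, which include each library left out in turn.

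The other di- and tricarboxylate carriers did not pass the threshold. Slc25a11, the oxoglutarate/malate carrier of the malate-aspartate shuttle, averaged 46.6 RPKM and Slc25a10, the dicarboxylate carrier, 6.08 RPKM, with log2 differences of MFN2-R94Q from nTg of 0.04 and -0.04. Slc25a21, the oxodicarboxylate carrier, was below the filter.

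Slc25a25 (ENSMUSG00000026819, chromosome 2, 32414487 to 32451445), a calcium-regulated carrier that exchanges ATP-Mg for phosphate, was at 34.8, 33.7 and 33.0 RPKM in nTg and at 29.1, 28.2 and 30.3 in MFN2-R94Q. The 5 MFN2-R94Q:MFN1 libraries held 31.7, 32.5, 30.8, 31.3 and 32.2 RPKM. The 3 groups did not overlap, with MFN2-R94Q lowest, MFN2-R94Q:MFN1 between and nTg highest. Slc25a25 fell by 0.21 ± 0.0368 on the log2 scale in MFN2-R94Q against nTg (limma adjusted p = 0.00395), a call it kept in all 20 alternative settings. It shares 379 exon bases, 4.82% of its annotated exon sequence, with Naif1 on the opposite strand, and the sources used here do not say whether counting used the strand.

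Its share among the 4 ATP-Mg/phosphate carriers was 41.0% ± 0.589 (SD, n = 3) in nTg, 37.8% ± 0.351 (n = 3) in MFN2-R94Q and 38.7% ± 0.783 (n = 5) in MFN2-R94Q:MFN1. The shares ran from 40.4% to 41.5%, from 37.6% to 38.2% and from 37.5% to 39.4%, so nTg lay above both other groups and these overlapped each other. Slc25a23, the member of this subgroup with the highest level, made up 58.1% ± 0.656, 61.3% ± 0.329 and 60.3% ± 0.695 in the same order. Its own level averaged 48.5 RPKM over all libraries, and its log2 difference of MFN2-R94Q from nTg was -0.02 without passing the threshold.

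Among the aspartate and glutamate carriers no member passed the threshold. Slc25a12 (ENSMUSG00000027010, chromosome 2, 71271063 to 71367749), the calcium-stimulated aspartate/glutamate carrier aralar of neurons and muscle, was at 56.5, 53.5 and 51.9 RPKM in nTg and at 56.6, 59.3 and 57.3 in MFN2-R94Q. In MFN2-R94Q:MFN1 it was at 54.9, 58.2, 55.8, 51.9 and 54.9 RPKM. MFN2-R94Q lay above nTg by a narrow margin at its lowest library, and MFN2-R94Q:MFN1 overlapped both. The log2 difference of MFN2-R94Q from nTg was 0.10 ± 0.0439 (SE) with a limma adjusted p of 0.139. With quantile normalization it was 0.14 and passed (limma adjusted p = 0.034).

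Slc25a13, the related carrier citrin of liver, was at 2.91, 2.87 and 3.42 RPKM in nTg, at 3.43, 6.42 and 3.10 in MFN2-R94Q and at 3.13, 3.09, 3.08, 3.01 and 2.85 in MFN2-R94Q:MFN1. Only MFN2-R94Q replicate 2 stood apart. The log2 difference of MFN2-R94Q from nTg was 0.37 ± 0.176 (SE, limma adjusted p = 0.153) with that library and 0.08 (limma adjusted p = 0.52) without it. Without MFN2-R94Q replicate 3 the difference was 0.55 and the adjusted p 0.042 in limma. Slc25a12 made up 94.6% ± 0.692 (SD, n = 3) of the RPKM of this pair in nTg, 93.1% ± 2.53 (n = 3) in MFN2-R94Q and 94.8% ± 0.236 (n = 5) in MFN2-R94Q:MFN1. The glutamate carriers Slc25a18 and Slc25a22 averaged 40 and 25.8 RPKM, with log2 differences of MFN2-R94Q from nTg of -0.13 and -0.08 that did not pass.

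No carrier of the other amino acid and carnitine group passed either. Its 5 tested members ranged from -0.16 to 0.10 in log2 difference of MFN2-R94Q from nTg. The lowest was Slc25a20, the carnitine/acylcarnitine carrier that brings fatty acids into the matrix, with 6.98, 6.57 and 6.91 RPKM in nTg and 5.71, 6.19 and 6.29 in MFN2-R94Q. These groups did not overlap. The adjusted p in limma was 0.064, and it was 0.045 with quantile normalization. Slc25a44, a carrier of branched-chain amino acids, Slc25a38, of glycine, Slc25a29, of basic amino acids, and Slc25a15, of ornithine, overlapped between the groups.

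Of 9 nucleotide, coenzyme and vitamin carriers, 1 rose. Slc25a36 (ENSMUSG00000032449, chromosome 9, 97074961 to 97111157), a carrier of pyrimidine nucleotides, was at 17.7, 16.2 and 16.0 RPKM in nTg and at 19.9, 18.9 and 18.4 in MFN2-R94Q. With MFN1 added it was at 17.5, 17.9, 17.7, 16.8 and 17.1 RPKM. MFN2-R94Q lay above all other libraries, and MFN2-R94Q:MFN1 overlapped nTg. Slc25a36 rose by 0.19 ± 0.0462 on the log2 scale in MFN2-R94Q against nTg (limma adjusted p = 0.0153). The call was lost without nTg replicate 2 (log2 difference 0.17, adjusted p 0.061 in limma) or nTg replicate 3 (0.16, 0.057).

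Slc25a33, the related pyrimidine nucleotide carrier, averaged 26.8 RPKM and overlapped between the groups. It shares 281 exon bases, 14.9% of its exon sequence, with the antisense gene Gm13068. It made up 62.1% ± 1.49 (SD, n = 3) of the summed RPKM of Slc25a33 and Slc25a36 in nTg, 58.9% ± 2.65 (n = 3) in MFN2-R94Q and 60.1% ± 1.60 (n = 5) in MFN2-R94Q:MFN1, with overlap between the groups. Slc25a32, a carrier of folate and FAD, was at 3.09, 2.35 and 3.17 RPKM in nTg and at 3.37, 3.47 and 3.47 in MFN2-R94Q. Slc25a16, linked to coenzyme A in the matrix, was at 6.92, 7.43 and 7.36 RPKM in nTg and at 7.71, 10.6 and 8.05 in MFN2-R94Q. Both lay above nTg in each MFN2-R94Q library, with limma adjusted p-values of 0.0742 and 0.0883. The log2 difference of Slc25a16 was 0.25, and 0.33 without MFN2-R94Q replicate 1 (limma adjusted p = 0.034) but 0.12 without replicate 2 (0.29). That of Slc25a32 was 0.23, and 0.12 without nTg replicate 2 (limma adjusted p = 0.25), while it passed with array weights (0.22, limma adjusted p = 0.032). Slc25a17, Slc25a26, Slc25a42 and Slc25a51, which carry coenzyme A and related cofactors, S-adenosylmethionine or NAD, overlapped between the groups.

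Of 4 iron and glutathione carriers, 1 fell. Slc25a39 (ENSMUSG00000018677, chromosome 11, 102402985 to 102407946), which carries glutathione into the matrix, was at 42.8, 43.6 and 43.2 RPKM in nTg and at 36.4, 37.8 and 40.9 in MFN2-R94Q. The 5 MFN2-R94Q:MFN1 libraries held 41.1, 43.9, 39.4, 42.2 and 43.6 RPKM. MFN2-R94Q lay below nTg, and MFN2-R94Q:MFN1 overlapped both groups. Slc25a39 fell by 0.17 ± 0.048 on the log2 scale in MFN2-R94Q against nTg (limma adjusted p = 0.0287). Without MFN2-R94Q replicate 1 the log2 difference was -0.13 (limma adjusted p = 0.075) and without replicate 2 it was -0.16 (0.068). Without nTg replicate 1, 2 or 3 it was -0.18, -0.16 and -0.17 (limma adjusted p = 0.062, 0.089 and 0.069).

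Slc25a40, the related glutathione carrier, averaged 4.34 RPKM, and Slc25a39 made up 90.8% ± 0.368 (SD, n = 3), 90.1% ± 0.342 (n = 3) and 90.5% ± 0.643 (n = 5) of the summed RPKM of this pair in nTg, MFN2-R94Q and MFN2-R94Q:MFN1. Slc25a28, the iron carrier mitoferrin 2, was at 16.5, 16.0 and 15.8 RPKM in nTg and at 15.5, 22.7 and 16.6 in MFN2-R94Q, so that only replicate 2 was high. Its log2 difference of MFN2-R94Q from nTg was 0.16 ± 0.103 (SE, limma adjusted p = 0.298) with that library and -0.006 without it. Slc25a37, the iron carrier mitoferrin 1 that is abundant in erythroid cells, averaged 7.18 RPKM and did not pass.

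The 3 uncoupling-protein-like carriers, which resemble the proton carrier of brown fat, were each lower in MFN2-R94Q than in nTg without overlap, and 2 of them passed the threshold. Of all tested genes, 35.7% did not overlap in either direction in this comparison and 10.4% were called lower. Slc25a14 (ENSMUSG00000031105, chromosome X, 48623413 to 48662294), also named UCP5 or brain mitochondrial carrier protein, was at 13.1, 13.8 and 12.4 RPKM in nTg and at 11.9, 10.3 and 11.6 in MFN2-R94Q. In MFN2-R94Q:MFN1 it was at 11.9, 12.1, 11.4, 11 and 11.9 RPKM. All libraries with the mutant mitofusin lay below all nTg libraries, and the groups with it overlapped each other. Slc25a14 fell by 0.21 ± 0.0577 on the log2 scale in MFN2-R94Q against nTg (limma adjusted p = 0.0265). Without MFN2-R94Q replicate 2 the log2 difference was -0.15 (limma adjusted p = 0.082), and without nTg replicate 1 or 2 it was -0.21 and -0.17 (limma adjusted p = 0.066 and 0.11).

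Slc25a27 (ENSMUSG00000023912, chromosome 17, 43641891 to 43667214), also named UCP4 and abundant in neurons, was at 21.9, 20.5 and 21.9 RPKM in nTg and at 19.9, 15.9 and 18.6 in MFN2-R94Q. In MFN2-R94Q:MFN1 it was at 20.8, 20, 18.6, 18.2 and 19.3 RPKM, overlapping both groups. MFN2-R94Q lay below nTg, with replicate 2 lowest. Slc25a27 fell by 0.24 ± 0.0709 on the log2 scale in MFN2-R94Q against nTg (limma adjusted p = 0.0346). Without MFN2-R94Q replicate 2 the log2 difference was -0.15 (limma adjusted p = 0.098), and without nTg replicate 1, 2 or 3 it was -0.22, -0.27 and -0.22 (limma adjusted p = 0.096, 0.057 and 0.096).

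Slc25a30, also named kidney mitochondrial carrier protein, was at 7.42, 8.10 and 7.85 RPKM in nTg and at 6.19, 7.34 and 6.97 in MFN2-R94Q. Its log2 difference was -0.18 ± 0.0658 (SE) with a limma adjusted p of 0.0765, and without MFN2-R94Q replicate 2 it was -0.23 with an adjusted p of 0.044 in limma. Without MFN2-R94Q replicate 1 it was -0.11 with an adjusted p of 0.22, and with array weights -0.15 with 0.046. The median log2 difference of the 3 carriers was -0.208 in MFN2-R94Q against nTg, and that of all tested genes was -0.002.

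Slc25a46 (ENSMUSG00000024259, chromosome 18, 31556111 to 31609911) lies in the outer membrane, acts in mitochondrial dynamics with the mitofusins and is itself mutated in inherited axonal neuropathy with optic atrophy. It was at 19.3, 18.2 and 18.4 RPKM in nTg and at 19.2, 19.2 and 18.6 in MFN2-R94Q. In MFN2-R94Q:MFN1 it was at 19.2, 18.9, 20, 19.1 and 18.8 RPKM. The 3 groups overlapped, and the log2 difference of MFN2-R94Q from nTg was 0.03 ± 0.0374 (SE, limma adjusted p = 0.643). The direction of this small difference turned to -0.005 with limma array weights and to -0.004 after removal of the trend with length and GC content. It shares 383 exon bases, 7.06% of its annotated exon sequence, with B930094E09Rik on the opposite strand.

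None of the 5 tested members of unsettled substrate passed the threshold, and their groups overlapped. Slc25a35 was at 2.30, 2.95 and 2.84 RPKM in nTg and at 2.71, 1.75 and 2.00 in MFN2-R94Q, a log2 difference of -0.28 ± 0.115 (SE, limma adjusted p = 0.108). Without MFN2-R94Q replicate 1 it was -0.42 with an adjusted p of 0.011 in limma, and without replicate 2 it was -0.17 with an adjusted p of 0.34. With limma array weights it passed (-0.30, adjusted p 0.019). Slc25a35 shares 1151 exon bases, 31.3% of its annotated exon sequence, with the coding gene Rangrf on the opposite strand, the highest share of any member, so reads of the 2 genes may not be separated. Slc25a34, Slc25a45, Slc25a47 and Slc25a53 averaged between 1.69 and 2.54 RPKM.

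**Figure D2:**
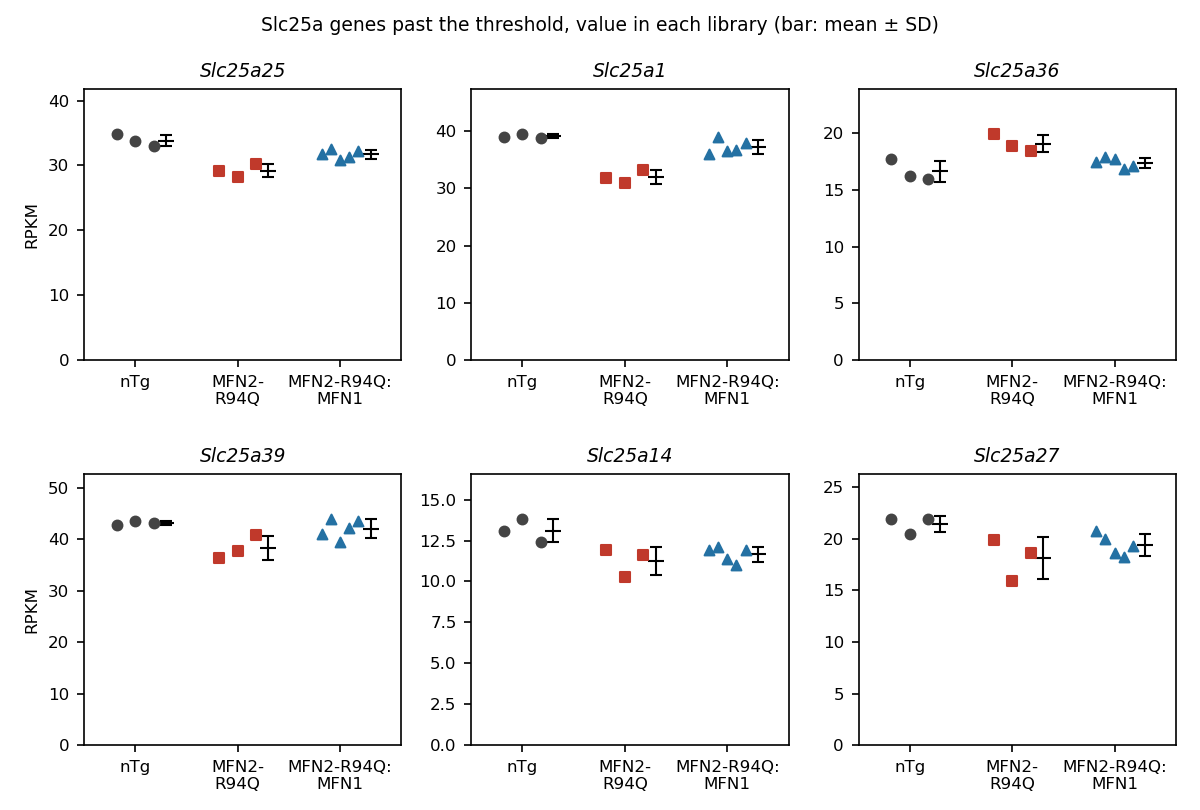
RPKM of the 6 Slc25a genes that passed the threshold in MFN2-R94Q against nTg, 1 point per library on axes that start at 0, with the mean ± SD of each genotype as a black bar. MFN2-R94Q is lowest for Slc25a1 and Slc25a25 and highest for Slc25a36, without overlap with either other group.

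The second comparison asked how the carriers differ when mitofusin 1 is added to the mutant. In MFN2-R94Q:MFN1 against MFN2-R94Q, 2 of the 40 tested members passed the threshold, 5.0% of them, against 12.9% of all tested genes. Both rose, Slc25a1 and Slc25a25, beside 9.55% of all tested genes called higher. The members' split of 2 higher and 0 lower was 1 and 1 with median scaling, 1 and 2 with quantile normalization and 2 and 2 after removal of the trend with length and GC content. Among all genes 1370 were higher and 478 lower, a split that moved to 1057 and 731 with median scaling, to 1004 and 833 with quantile normalization and to 1042 and 869 after removal of the trend with length and GC content. Groups did not overlap for 3 members, the 2 called and Slc25a36, against 20.1% of all tested genes. The median log2 difference was 0.015 over the members and 0.012 over all tested genes. This comparison and that of MFN2-R94Q against nTg share the 3 MFN2-R94Q libraries, so a high or low value there enters both with opposite sign.

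Slc25a1, the citrate carrier, rose by 0.21 ± 0.0345 (SE) on the log2 scale in MFN2-R94Q:MFN1 against MFN2-R94Q (limma adjusted p = 0.00339), in a call kept by all 20 alternative settings. Slc25a25, the ATP-Mg/phosphate carrier, rose by 0.12 ± 0.0329 (SE, limma adjusted p = 0.0362). It no longer passed without MFN2-R94Q replicate 1 (log2 difference 0.11, limma adjusted p = 0.061) or replicate 2 (0.09, 0.13). The same held without MFN2-R94Q:MFN1 replicate 1, 2, 4 or 5, with log2 differences of 0.12, 0.11, 0.12 and 0.11 and limma adjusted p-values of 0.064, 0.082, 0.051 and 0.079.

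Slc25a36 was lower in MFN2-R94Q:MFN1 than in MFN2-R94Q without overlap, with a log2 difference of -0.13 ± 0.0413 (SE) and a limma adjusted p of 0.0576. It passed without MFN2-R94Q replicate 3 (limma adjusted p = 0.049) or nTg replicate 1 (0.045), and with median scaling (0.034), quantile normalization (0.031) or the length and GC correction (0.031). Slc25a39 differed by 0.13 ± 0.043 (SE, limma adjusted p = 0.0613) and passed without MFN2-R94Q replicate 3 (log2 difference 0.18, limma adjusted p = 0.022) or MFN2-R94Q:MFN1 replicate 3 (0.15, 0.038).

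The uncoupling-protein-like carriers did not pass here. Slc25a14 differed by 0.05, Slc25a27 by 0.10 and Slc25a30 by 0.03 on the log2 scale, and MFN2-R94Q:MFN1 overlapped MFN2-R94Q for each. Without MFN2-R94Q replicate 2 the difference of Slc25a14 was -0.01. Slc25a13 differed by -0.38 (limma adjusted p = 0.125) with MFN2-R94Q replicate 2 and by -0.09 (limma adjusted p = 0.48) without it, and by -0.56 without MFN2-R94Q replicate 3 (limma adjusted p = 0.036).

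The third comparison set MFN2-R94Q:MFN1 against nTg. None of the 40 tested members passed the threshold in limma, against 2.31% of all tested genes. In limma 8 members had an unadjusted p below 0.05. The share of all tested genes at this unadjusted p is not given here, so the count has no background. The number of members at this unadjusted p was 10 without MFN2-R94Q replicate 2 and 9 with the 2 groups fitted alone. It was 3 without MFN2-R94Q:MFN1 replicate 3 or nTg replicate 3, and 4 without MFN2-R94Q:MFN1 replicate 4 or nTg replicate 2. It was 5 without MFN2-R94Q:MFN1 replicate 5 or MFN2-R94Q replicate 3 or with quantile normalization. Groups did not overlap for 3 members, against 14.1% of all tested genes. Slc25a14 was lower (log2 difference -0.16 ± 0.0516 SE, limma adjusted p = 0.154), Slc25a25 was lower (-0.09 ± 0.0329 SE, limma adjusted p = 0.198), and Slc25a23 was higher by 0.04. The median log2 difference was -0.036 over the members (-0.018 without MFN2-R94Q:MFN1 replicate 4, -0.056 with median scaling) and 0.008 over all tested genes, and 26 of 40 differences were below 0, against 45.8% of all tested genes. The differences of the 3 uncoupling-protein-like carriers ran from -0.16 to -0.14. Slc25a1 differed by -0.07 ± 0.0345 (SE, limma adjusted p = 0.352). This comparison shares its nTg libraries with that of MFN2-R94Q against nTg.

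**Figure D3:**
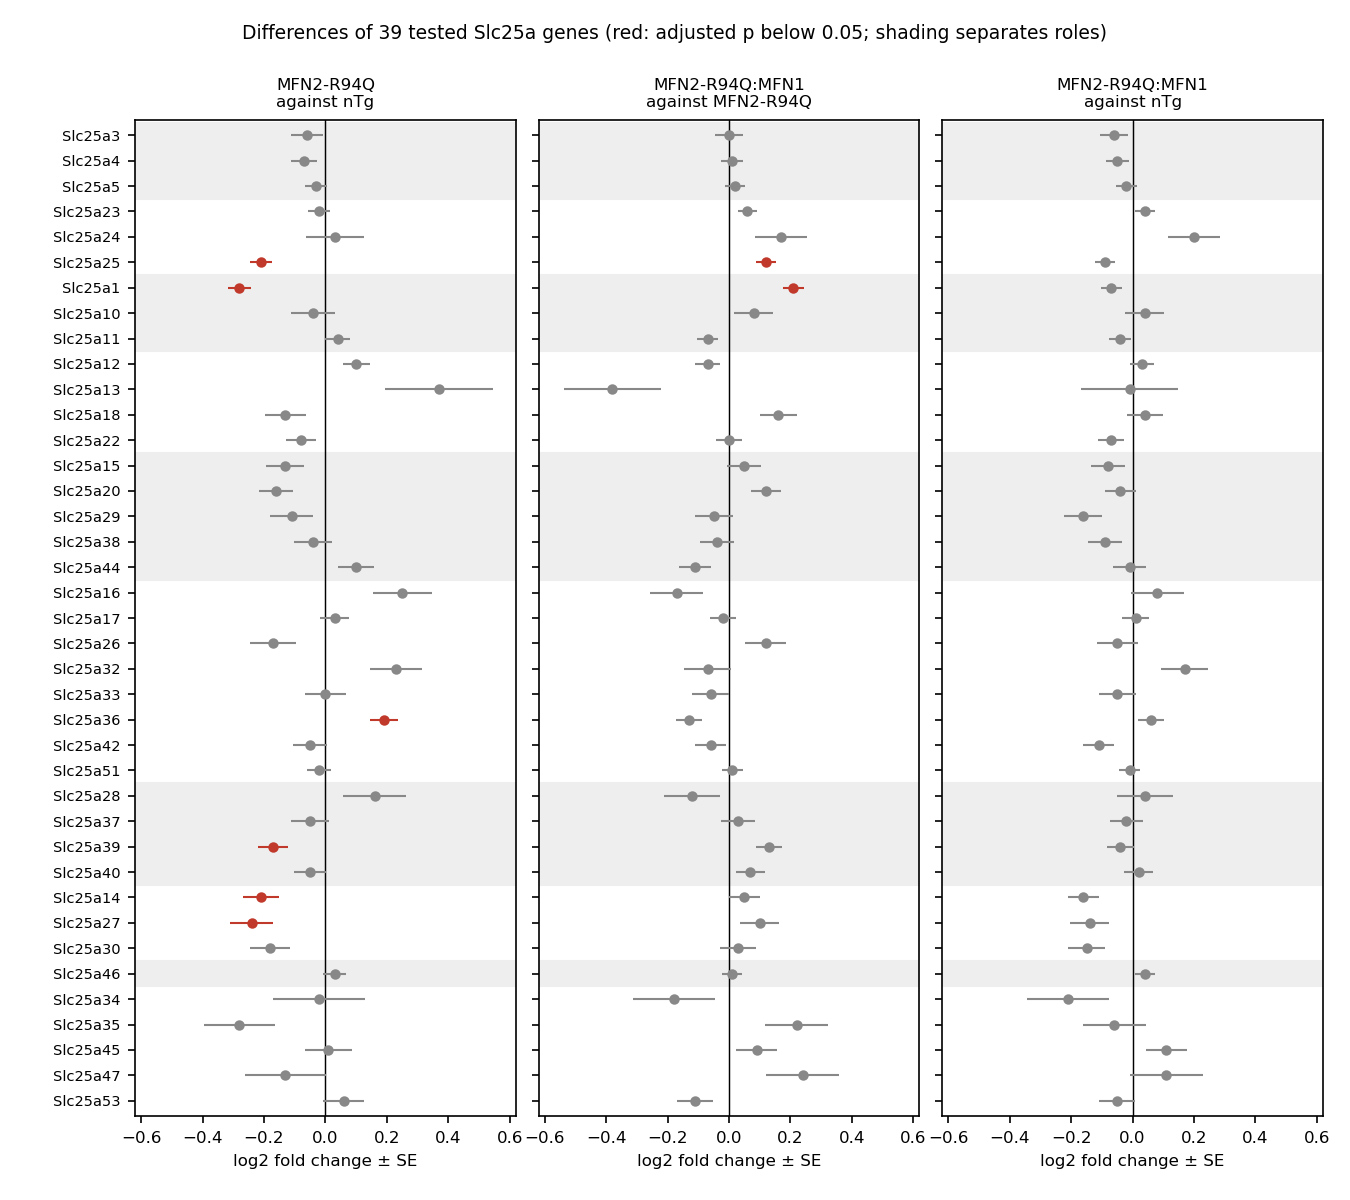
Log2 fold change ± SE of 39 of the 40 tested Slc25a genes in 3 comparisons, ordered by role with shading between roles; red marks an adjusted p below 0.05. In MFN2-R94Q against nTg 6 genes are red, in MFN2-R94Q:MFN1 against MFN2-R94Q 2, and in MFN2-R94Q:MFN1 against nTg none.

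The difference between the groups was small beside that of single libraries for several members. MFN2-R94Q replicate 2 held the highest or lowest of the 11 values for 21 of 40 members (52.5%), as it did for 48.5% of all tested genes. For 6 members (15.0%) it differed from the mean of the other MFN2-R94Q libraries by more than 0.3 on the log2 scale, and for 10.4% of all tested genes. These 6 were Slc25a13 (0.88), Slc25a34 (0.53), Slc25a28 (0.49), Slc25a16 (0.40), Slc25a47 (0.39) and Slc25a35 (-0.33). None of the 6 is among those called in any comparison. The spread by which they were picked also widens their SE, so this does not show that the calls are free of that library. For Slc25a1, Slc25a25, Slc25a36 and Slc25a39 the same difference lay between -0.07 and -0.01, while it was -0.18 for Slc25a14 and -0.27 for Slc25a27. The median coefficient of variation of members was 3.77% in nTg, 5.94% in MFN2-R94Q and 4.76% in MFN2-R94Q:MFN1, and that of all tested genes was 4.47%, 6.52% and 4.82%.

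**Figure D4:**
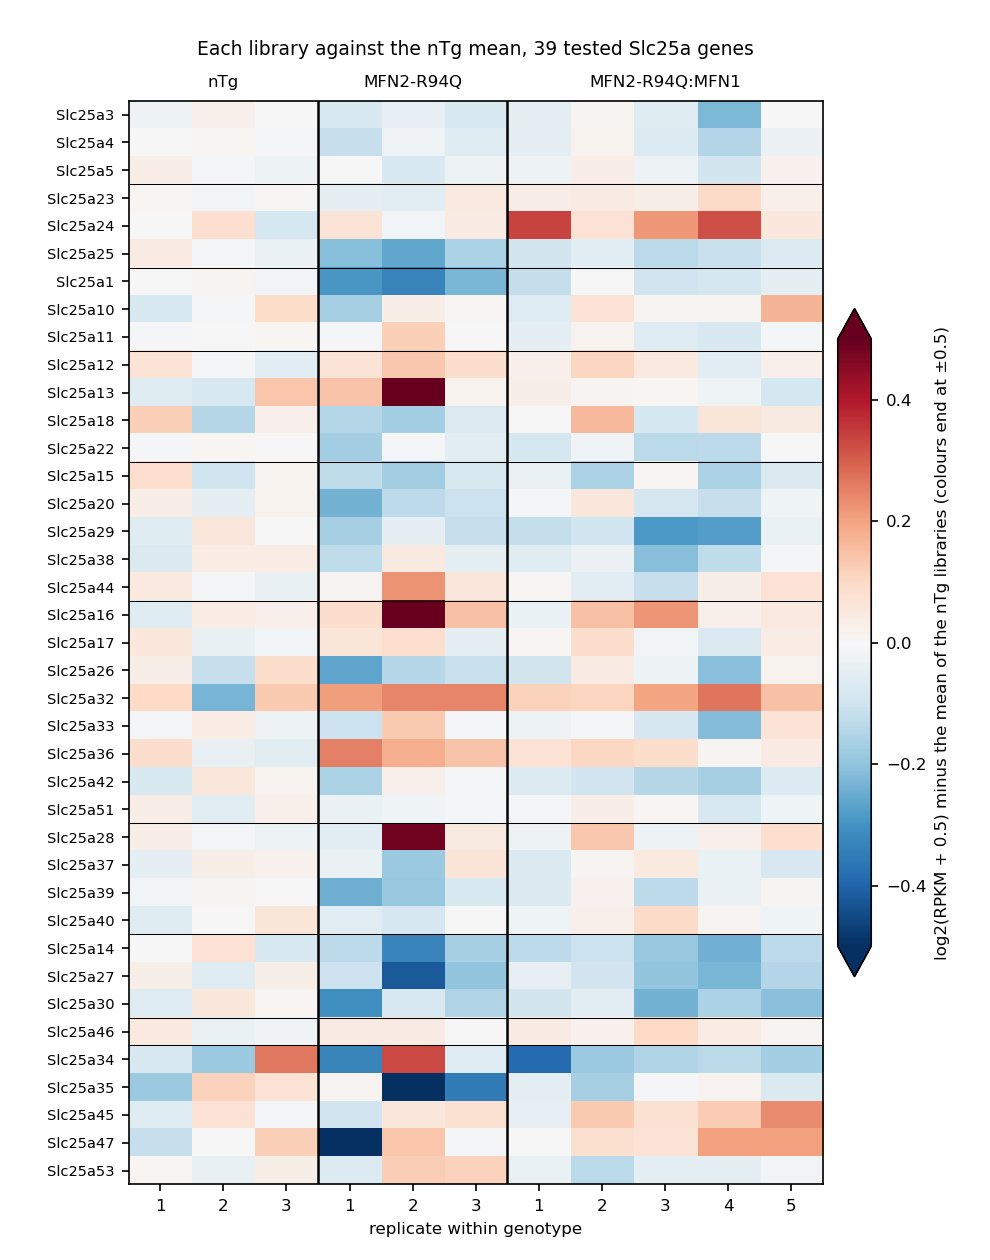
Log2(RPKM + 0.5) of 39 of the 40 tested Slc25a genes in each of 11 libraries minus the nTg mean, with colours that end at ±0.5. MFN2-R94Q replicate 2 carries the darkest cells for Slc25a13, Slc25a28 and Slc25a16, while Slc25a1 and Slc25a25 are blue in all 3 MFN2-R94Q libraries.

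Leaving out single libraries changed the counts of called members. In MFN2-R94Q against nTg the count of 6 became 3, 2 and 3 without nTg replicate 1, 2 and 3. It was 4 without MFN2-R94Q replicate 2, where Slc25a14, Slc25a27 and Slc25a39 no longer passed and Slc25a30 did. In MFN2-R94Q:MFN1 against MFN2-R94Q the count of 2 became 1 without MFN2-R94Q replicate 2 or without MFN2-R94Q:MFN1 replicate 1, 2, 4 or 5, and 5 without MFN2-R94Q replicate 3. Without MFN2-R94Q:MFN1 replicate 3, the library with the high value of Prx, the counts were 6 and 3.

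**Figure D5:**
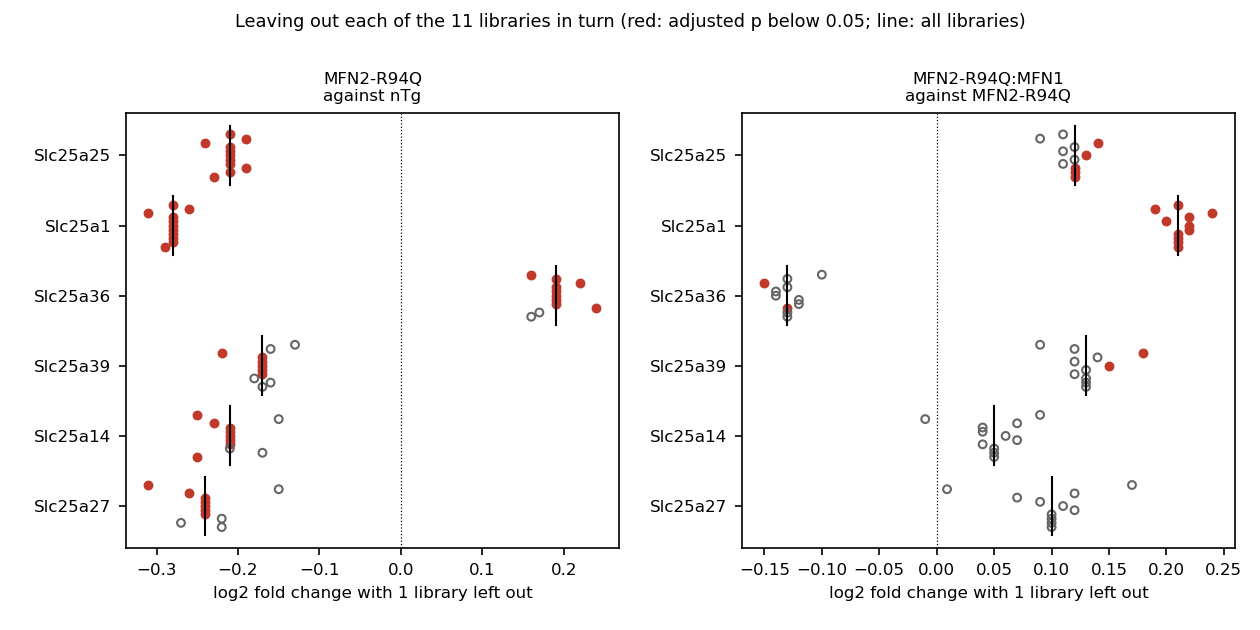
Log2 fold change of the 6 called Slc25a genes with each of the 11 libraries left out in turn, 1 point per omitted library; filled red points have an adjusted p below 0.05, open points do not, and black lines give the value with all libraries. Slc25a1 stays red throughout in both comparisons, and Slc25a25 does so in MFN2-R94Q against nTg.

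Other genes of mitochondrial transport were read from a list of 39, of which 37 were tested. In MFN2-R94Q against nTg 2 were higher and 6 lower, 21.6% of those tested beside 17.9% of all genes. In MFN2-R94Q:MFN1 against MFN2-R94Q 3 were higher and none lower, 8.11% of those tested beside 12.9% of all genes. In MFN2-R94Q:MFN1 against nTg none passed in limma, beside 2.31% of all tested genes. The unadjusted p was below 0.05 for 4, a count also given without the share of all tested genes.

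Both enzymes of the glycerol phosphate shuttle, which passes electrons from cytosolic NADH to the respiratory chain, fell in MFN2-R94Q against nTg and rose in MFN2-R94Q:MFN1 against MFN2-R94Q. Gpd1, the cytosolic enzyme, was at 51.9 ± 2.81 RPKM (SD, n = 3) in nTg, 45.2 ± 3.46 (n = 3) in MFN2-R94Q and 52.9 ± 3.05 (n = 5) in MFN2-R94Q:MFN1. Its log2 differences were -0.20 (limma adjusted p = 0.0481) and 0.23 (0.0234). Gpd2, the enzyme of the inner membrane, was at 17.5 ± 0.173, 15.3 ± 1.54 and 17.3 ± 0.317 RPKM, with log2 differences of -0.20 (limma adjusted p = 0.0325) and 0.18 (0.038). Without MFN2-R94Q replicate 2 those of Gpd2 were -0.11 (limma adjusted p = 0.06) and 0.10 (0.1), and without MFN2-R94Q replicate 1 those of Gpd1 were -0.13 (limma adjusted p = 0.13) and 0.16 (0.067). Against nTg, Gpd2 also lost its call without nTg replicate 1, 2 or 3 (log2 difference -0.19 to -0.20), and Gpd1 without nTg replicate 1 or 3 (-0.18 and -0.17) or MFN2-R94Q:MFN1 replicate 2, 3 or 5 (-0.20). Against MFN2-R94Q, Gpd2 also lost it without nTg replicate 1 or 3 or any MFN2-R94Q:MFN1 library (0.17 to 0.18), and Gpd1 without MFN2-R94Q:MFN1 replicate 5 (0.22). None of the 4 malate-aspartate shuttle enzymes and none of the 3 outer membrane channels of the Vdac family passed in either comparison.

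Mpc2, a subunit of the mitochondrial pyruvate carrier, was at 55.8 ± 1.16 RPKM (SD, n = 3) in nTg, 45.7 ± 2.58 (n = 3) in MFN2-R94Q and 50.9 ± 3.11 (n = 5) in MFN2-R94Q:MFN1. It fell by 0.29 ± 0.0552 on the log2 scale in MFN2-R94Q against nTg (limma adjusted p = 0.0058) and kept this call in all 20 alternative settings. Agk, an acylglycerol kinase that is also a subunit of the TIM22 complex, fell by 0.21 ± 0.0422 (limma adjusted p = 0.00757). All 8 tested genes of the TIM22 route had log2 differences below 0, as did 50.7% of all tested genes, and 2 of the 8 passed (beside 10.4% of all tested genes called lower), Agk and Timm8b (-0.14, limma adjusted p = 0.0349). Sfxn5, a sideroflexin, fell by 0.26 in MFN2-R94Q against nTg (limma adjusted p = 0.0119) and rose by 0.25 in MFN2-R94Q:MFN1 against MFN2-R94Q (0.0105). The first call was lost without nTg replicate 2 (-0.23, limma adjusted p = 0.053).

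Ucp3, an uncoupling protein under its own name, was at 2.84, 2.50 and 2.72 RPKM in nTg and at 3.04, 5.46 and 3.64 in MFN2-R94Q, and rose by 0.48 ± 0.139 on the log2 scale (limma adjusted p = 0.0329). Without MFN2-R94Q replicate 2 the difference was 0.27 (limma adjusted p = 0.06), and without nTg replicate 1, 2 or 3 it was 0.51, 0.44 and 0.49 (limma adjusted p = 0.06, 0.11 and 0.073). Its relative Ucp2 was at 22, 43.2 and 26.7 RPKM in MFN2-R94Q and between 19.3 and 24.9 in all other libraries (limma adjusted p = 0.0691). The log2 difference of Ucp2 was 0.69 without MFN2-R94Q replicate 1 (limma adjusted p = 0.01) and 0.22 without replicate 2 (0.17). Sfxn2, named with Timm8b after its values were seen, rose by 0.25 (limma adjusted p = 0.0443). Sfxn2 kept its call only without MFN2-R94Q replicate 1 or MFN2-R94Q:MFN1 replicate 3; without any of the other 9 libraries its log2 difference was 0.19 to 0.29 and the limma adjusted p 0.05 to 0.15. Timm8b lost its call without MFN2-R94Q replicate 2 or 3 or nTg replicate 1 or 3, with log2 differences of -0.12, -0.15, -0.10 and -0.15. Ucp1, the proton carrier of brown fat, was below 0.1 RPKM in every library.

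Markers of cell types moved between the groups as well. Their counts stand beside 10.4% of all tested genes called lower and 7.5% called higher in MFN2-R94Q against nTg. In MFN2-R94Q:MFN1 against MFN2-R94Q 12.9% of all tested genes were called, 9.55% as higher. In MFN2-R94Q:MFN1 against nTg 2.31% were called. Of 8 oligodendrocyte and myelin markers, 4 fell in MFN2-R94Q against nTg and 6 rose in MFN2-R94Q:MFN1 against MFN2-R94Q. Their summed level ran from 3900.3 to 4225 RPKM in nTg, from 3411 to 3751 in MFN2-R94Q and from 4029 to 4358 in MFN2-R94Q:MFN1. Of 5 motor neuron markers 3 fell in MFN2-R94Q against nTg, with sums from 52.3 to 54.3, from 45.8 to 50.3 and from 49.1 to 53.5 RPKM. Of 6 microglia markers all rose in MFN2-R94Q:MFN1 against MFN2-R94Q, with sums from 130.5 to 141, from 126 to 145 and from 181 to 206 RPKM. Among these markers 4 rose in MFN2-R94Q:MFN1 against nTg, and 1 was called lower in MFN2-R94Q against nTg. Of 8 genes that respond to glucocorticoids 3 rose in MFN2-R94Q against nTg, with sums from 557 to 645, from 778 to 1570.2 and from 649 to 789 RPKM, and 3 fell in MFN2-R94Q:MFN1 against MFN2-R94Q. Their part in the carrier differences was not tested. Erythroid markers, which matter for the iron carriers, had sums from 196 to 260, from 116 to 247 and from 147 to 460 RPKM, and none passed. Summed neuron markers were also lower in MFN2-R94Q than in nTg without overlap, from 1828 to 1896 RPKM in nTg, from 1621 to 1816 in MFN2-R94Q and from 1769 to 1825 in MFN2-R94Q:MFN1, with 1 of the 5 called higher and 1 lower in MFN2-R94Q against nTg. The same separation of MFN2-R94Q from nTg held for endothelial markers, with sums from 64.8 to 71.1, from 62.7 to 63.9 and from 64.0 to 74.7 RPKM, and for ependymal markers, from 14.4 to 16.7, from 12.9 to 13.6 and from 15.0 to 17.0. It held as well for markers of oligodendrocyte precursors, from 15.2 to 16.6, from 11.7 to 14.5 and from 13.7 to 16.2 RPKM, and for 3 Schwann cell markers, from 35.8 to 40.2, from 26.3 to 34.5 and from 40.1 to 48.7. The single markers of these lists did not all fall. In MFN2-R94Q against nTg, 1 of 5 endothelial markers was called higher and 2 lower. Of 3 precursor markers 1 was called higher and 1 lower, as were 1 and 1 of the 2 tested Schwann cell markers. Of 3 ependymal markers 1 was called lower and none higher. Summed astrocyte markers overlapped between nTg and MFN2-R94Q, with sums from 432 to 449.7, from 411 to 443 and from 443 to 459.6 RPKM. Of the 6 astrocyte markers, 1 was called higher and 1 lower in MFN2-R94Q against nTg. In MFN2-R94Q:MFN1 against MFN2-R94Q 2 of the 6 were called higher and 1 lower. The part of these cell types in the carrier differences was not tested either. Skeletal muscle markers summed to at most 1.80 RPKM, sensory ganglion markers to at most 0.328 RPKM and adipocyte markers to at most 0.145 RPKM in any library.

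Members lay on 19 chromosomes, and 3 pairs had a neighbouring member within 10 kb. Slc25a29 and Slc25a47 on chromosome 12 point away from each other across 162 bases, and their log2 differences of MFN2-R94Q from nTg were -0.11 and -0.13. Slc25a41 lies 2056 bases from Slc25a23 on chromosome 17, and Slc25a54 lies 6461 bases from Slc25a24 on chromosome 3. In both of these pairs one gene was below the filter.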

How the data were processed

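Messenger RNA from the lumbar spinal cord of 11 mice was sequenced with a stranded kit, per the labels' protocols. The labels give the genotype of each library and no sex, batch or pairing. Because the design text gives numbers of mice, 1 library is read as 1 animal, and replicate numbers follow the order of the records. Within groups, the SD of the log2 difference between libraries ran from 0.126 to 0.238, and no 2 libraries held identical values.

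The authors deposited RPKM values for 20888 gene symbols, made with TopHat and Partek 7.17.0918 on mm10, per the submitters' processing notes. The annotation, the strand setting and the treatment of reads with several matches are not stated there. Depth was recovered from the steps of low values of short RNA genes, which fell on whole reads, with a tolerance of 0.02, for 91.8% to 98.5% of them in each library. It sets the counting precision of low members.

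A linear model with genotype as its term was fitted to log2(RPKM + 0.5) of the 11 libraries together, with limma 3.58.1 (R 4.3.3) and its trended empirical Bayes step. It covered the 14347 genes that reached 0.5 RPKM in 3 or more libraries. Tests were two-sided with Benjamini-Hochberg adjustment over these genes and a threshold of 0.05. Fold changes on this scale understate those of low genes. The procedure was tested on simulated data. The members and gene lists were chosen with earlier results of these data known, so no list was tested as a set. The values of 1 tested member are not reported here, and it is counted in the totals but not drawn. Named with values were members past the threshold, the 3 members with the highest mean, Slc25a46, Slc25a12 and Slc25a4, and up to 5 transport genes per comparison by smallest adjusted p. Other members given with values, and Gpd1 against nTg, Sfxn2, Timm8b and Ucp2, were chosen after their values were seen. Positions are from GENCODE M21 on GRCm38, and promoter sequences are from RefSeq. Other settings tried were the pseudocount, the low-value filter, the scaling, the groups fitted, array weights, a correction for length and GC content, and each library left out. Figures were drawn with matplotlib 3.10.9.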

Additional observations from a re-analysis of the deposited data

Results flagged for a closer look

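In the group of 5 MFN2-R94Q:MFN1 libraries, 1 library lay apart from the other 4 for 3 of the 40 tested members, when the gap to the nearest value was set against the range of the group (critical value 0.71). Chance alone gives such a library in about 1 in 20 groups. Slc25a23, an ATP-Mg/phosphate carrier, was at 51.2 RPKM in replicate 4, and the nearest other library was at 49.3. Slc25a34, of unsettled substrate, was at 1.32 RPKM in replicate 1, and the nearest other was at 1.60. Slc25a53, also of unsettled substrate, was at 1.70 RPKM in replicate 2, and the nearest other was at 1.84. The 3 libraries differ, and none of these members passed the threshold in a comparison. Groups of 3 libraries were not examined in this way.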

How the results depend on the processing

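The count of 6 members called in MFN2-R94Q against nTg was 2 with the 2 groups fitted alone, 3 with no filter, and 2 to 8 with 1 library left out. The count of 2 in MFN2-R94Q:MFN1 against MFN2-R94Q was 1 with the 2 groups alone, 4 with array weights, 4 with the length and GC trend removed, and 1 to 5 with 1 library left out. Other settings kept these counts within 1.5 times, and the count in MFN2-R94Q:MFN1 against nTg was 0 in all 20 alternatives. Over all genes, the 2561 called in MFN2-R94Q against nTg became 846 with the 2 groups alone, 1213 without nTg replicate 2, 1692 without nTg replicate 1, 1684 without nTg replicate 3 and 1618 without MFN2-R94Q replicate 2. Of the 2561, 1076 were higher and 1485 lower, and 1267 and 1278 with quantile normalization. The 1848 called in MFN2-R94Q:MFN1 against MFN2-R94Q became 3378 with array weights, 1198 with no filter, 882 without MFN2-R94Q replicate 2, and 1097 and 1149 without MFN2-R94Q:MFN1 replicate 2 and 5. The 332 called in MFN2-R94Q:MFN1 against nTg became 566 with the 2 groups alone, 590 with array weights, 222 with a filter of 2 RPKM, and between 189 and 589 with 1 library left out.

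Among the log2 differences given for single genes, signs turned only in ones that had not passed. In MFN2-R94Q against nTg, Slc25a5 went to 0.008 with the length and GC trend removed and to 0.003 with quantile normalization, and Slc25a46 to -0.005 with array weights and -0.004 with the trend removed. Slc25a10 went to 0.001 with array weights and 0.01 with the trend removed, and Slc25a23 to 0.04 with array weights and 0.02 with quantile normalization. With 1 library left out, Slc25a10 ran from -0.08 to 0.02, Slc25a11 from -0.007 to 0.06, Slc25a23 from -0.05 to 0.002, Slc25a28 from -0.006 to 0.26 and Slc25a47 from -0.26 to 0.06. In MFN2-R94Q:MFN1 against MFN2-R94Q, Slc25a14 went to -0.003 with the trend removed, and with 1 library left out Slc25a14 ran from -0.01 to 0.09 and Slc25a30 from -0.04 to 0.08. The cause was not tested. Of the calls given for single members, those of Slc25a14, Slc25a27, Slc25a36 and Slc25a39 against nTg were lost in 5, 7, 3 and 9 of 20 alternatives, and that of Slc25a25 against MFN2-R94Q in 9 of 20. No paired analysis was possible because the labels give no pairing of mice between the groups. Depth limits the 8 members at 1 RPKM or less.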
